A study of Homo sapiens with 8 samples.

Results

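A375-LM3 cells expressing JMJD3 that had been recovered from a primary tumor were set against cells of the same kind that had only been grown in culture. A375-LM3 is a derivative of A375, an established human melanoma cell line. The study's title gives its purpose as finding genes that JMJD3 acts on, and the comparison described here asks how the JMJD3 cells differed after growth in a tumor. Expression was measured on 1-colour Illumina BeadChips, on which each probe gives 1 brightness value (intensity). There were 4 groups of 2 arrays, of which JMJD3 cells made up the tumor-dissociated and the cultured group described here, and vector cells gave another tumor-dissociated and another cultured group. The JMJD3 groups are titled WT in the labels, their genotype is given as expressing JMJD3, and the vector groups express the empty vector. The labels describe dissociated cells as taken out of a tumor that the line had formed and then kept for 3 passages, and cultured cells as grown for 1 day, so tumor growth, dissociation and time in culture cannot be told apart. The labels name neither the host animal nor a sorting step, do not say whether each line is 1 clone, and do not say whether the 2 arrays of a group came from separate cultures or tumors. The p-values therefore measure only how far arrays of a group lie apart, which may be technical variation. Members were all probes with 1 gene symbol that exceeded the background level of 161.569 on at least 2 of the 4 JMJD3 arrays. They were 15632 probes for 11696 genes, out of 16679 probes for 12388 genes that passed on at least 2 of all 8 arrays. Of the member probes, 13630 were above background on all 4 JMJD3 arrays and 2002 on 2 or 3 of them.

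JMJD3, the product of KDM6B, is a histone demethylase that removes the repressive H3K27 methyl mark laid down by Polycomb complexes. Cells taken from a tumor may carry the imprint of selection and of contact with stroma, matrix and immune signals, and may be accompanied by cells of the host. Background for such a comparison therefore includes matrix and adhesion genes, interferon-stimulated genes, which most cells switch on when they sense interferon, and cell cycle genes, whose messages follow the share of dividing cells.

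The KDM6B probe read 161.7 and 159.7 in tumor-dissociated JMJD3 cells and 155.8 and 150.0 in cultured JMJD3 cells, against 148.4 and 140.6 in tumor-dissociated vector cells and 150.3 and 144.5 in cultured vector cells. It exceeded the background level on 1 of 8 arrays, so this probe gave no check of the JMJD3 label. Of the melanoma and melanocyte markers, MITF, SOX10 and S100A1 were above background on both arrays of each JMJD3 group, PMEL on 1 array, and TYR, TYRP1, MLANA and S100B on none. SOX10, a neural crest transcription factor of the melanocyte lineage, read 1188 and 2184 in tumor-dissociated and 2569 and 1956 in cultured JMJD3 cells, with overlapping groups. Replicate arrays had a correlation across genes of 0.981 in tumor-dissociated and 0.990 in cultured JMJD3 cells, and the SD between replicates was 0.291 in tumor-dissociated and 0.208 in cultured cells on the log2 scale. Principal component 1, with 54.1% of the variance, placed the tumor-dissociated JMJD3 arrays at 34.8 and 18.3, against -19.3 and -23.9 for the cultured JMJD3 arrays.

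Among members, 464 genes were higher and 272 lower in tumor-dissociated than in cultured JMJD3 cells at a Benjamini-Hochberg adjusted p under 0.05 in limma. Over all 12388 genes tested, 3.78% were called higher and 2.2% lower, 5.98% in all, and every gene printed as called separated the 2 arrays of each group without overlap, as 55.7% of all genes tested did. The changes upward were the larger ones. The median log2 difference, tumor-dissociated minus cultured, was 1.14 among called higher genes and -0.87 among called lower genes, and -0.012 over all genes tested. A log2 difference beyond 1 was reached by 293 of the called higher and 78 of the called lower members. Because 4 genes called higher and 1 called lower, BOC, BBOX1, LOXL1, TMEM119 and H2AP, were above background on fewer than 2 of the 4 JMJD3 arrays, they are not members.

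**Figure D1:**
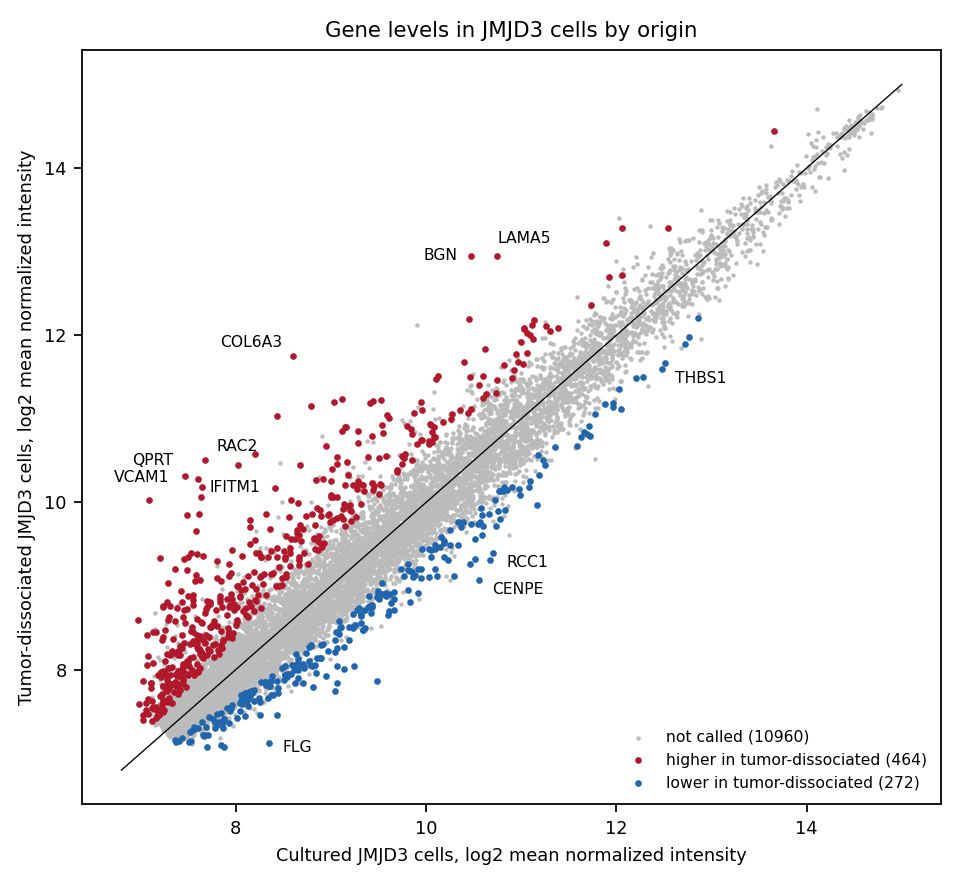
Each point is 1 of 11696 member genes, with the log2 mean normalized intensity in cultured JMJD3 cells on the x axis and in tumor-dissociated JMJD3 cells on the y axis. The line marks equal levels, and the 464 genes called higher in tumor-dissociated cells reach farther from it than the 272 called lower.

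The count of calls rested on individual arrays. Below, T1 and T2 stand for the tumor-dissociated and C1 and C2 for the cultured JMJD3 arrays, replicates 1 and 2. The 736 calls became 181 without T1, 1286 without T2, 127 without C1 and 39 without C2. Without either cultured vector array they numbered 383, which changed the estimate of the spread and not the JMJD3 values. A total of 36 genes were called in each of the 8 fits that left out 1 array, and all 36 were higher in tumor-dissociated cells. They include the adhesion molecule VCAM1, the matrix genes COL6A3, BGN, EFEMP2, POSTN, OLFML3, PAMR1 and LAMA5, the cadherin CDH11, the keratin KRT8, the protease CTSK, the secreted factors EDN3, PGF, GDF15 and SERPINF1, the interferon-induced IFITM1, and the signalling genes RAC2, RCAN2, SPRY1, PTPRO and GPER1. Lower calls numbered 0 without C2, 21 without C1, 31 without T1, 101 without either cultured vector array, 293 without either tumor-dissociated vector array and 484 without T2.

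The gene with the largest measured difference was QPRT, an enzyme of NAD synthesis from quinolinate. Its intensity was 1298 and 1244 in tumor-dissociated and 180.3 and 173 in cultured JMJD3 cells, a log2 difference of 3.98 ± 0.18 (SE, adjusted p = 3.28e-05). Differences were computed after background correction, so they exceed the ratio of the printed intensities, which still hold background. RAC2, best known from blood cells, read 1234 and 1682 in tumor-dissociated and 197 and 214 in cultured JMJD3 cells, and its log2 difference was 3.70 ± 0.20. SOX9, a transcription factor of neural crest and cartilage, had 727 and 1419 against 193 and 206 and a difference of 3.23 ± 0.40. For these 3 genes the groups lay far apart. The actin filament capping protein TMOD1 (1409 and 436 in tumor-dissociated, 184 and 175 in cultured cells, log2 3.10), the lysophosphatidic acid receptor LPAR1 (494 and 1843 against 212 and 189, log2 3.08), and the hypoxia-inducible transcription factor EPAS1 (1149.9 and 469 against 205 and 179, log2 2.81) were also called, but their tumor-dissociated arrays differed from each other by more than 2-fold. The orphan receptor GPR162 read 889 and 456 against 194 and 176, a log2 difference of 2.68 ± 0.32.

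The gene called lower by the largest measured amount was ANO1, a calcium-activated chloride channel, with 177 and 290.0 in tumor-dissociated and 752 and 682 in cultured JMJD3 cells and a log2 difference of -2.37 ± 0.51 (SE, adjusted p = 0.0334). FGF13, an intracellular relative of the fibroblast growth factors, read 202 and 284 against 508 and 483, and the difference was -1.55 ± 0.25. KHDRBS3, an RNA-binding splicing regulator, read 676 and 591 against 1623 and 1643 (log2 -1.53). RCC1, which charges the nuclear transport GTPase Ran, read 603 and 741 against 1667 and 1662 (log2 -1.47). The bactericidal enzyme gene LYZ, DEPDC7 and CCDC15 had log2 differences of -1.58, -1.61 and -1.40. Each of these genes stayed below its cultured arrays on both tumor-dissociated arrays, but ANO1 kept its call in 3 and KHDRBS3 in 5 of the 8 fits with 1 array left out.

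**Figure D2:**
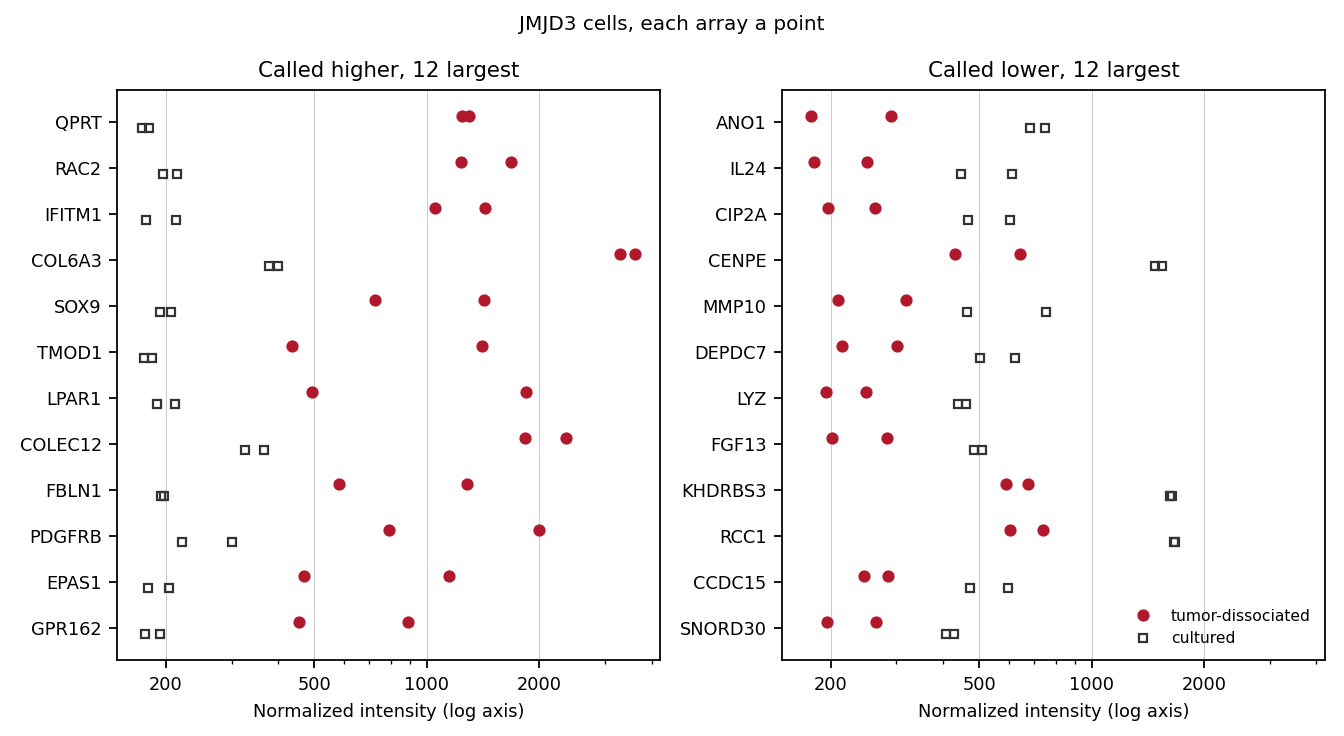
Normalized intensity (log axis) on each tumor-dissociated (filled circles) and cultured (open squares) JMJD3 array for the 12 genes called higher and the 12 called lower with the largest difference that were above background on all 4 arrays. Circles and squares of a gene do not overlap, and the 2 circles of LPAR1 and TMOD1 lie far apart.

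Some genes were above background in 1 of the groups only, and their ratio is a lower bound. The bound is given after background correction and again in the uncorrected intensities, where it is smaller and does not rest on the correction. VCAM1, an adhesion molecule that binds leukocyte integrins, read 1269 and 820.4 in tumor-dissociated and 133 and 138 in cultured JMJD3 cells, at least 15.4-fold higher after correction and 6.31-fold without it (adjusted p = 3.7e-05). The calcium channel subunit CACNA2D4 was at least 9.11-fold higher after correction and 3.98-fold without it, with 711 and 582 against 143 and 152. The membrane-bending endophilin SH3GL2 (6.17 and 2.97), the estrogen-responsive receptor GPER1 (5.47 and 2.64), the calcineurin regulator RCAN2 (5.40 and 2.63), the Fas inhibitor FAIM2 (4.85 and 2.50), the carbonic anhydrase CA12 (4.80 and 2.41) and the sphingosine phosphate receptor S1PR3 (4.34 and 2.35) followed, the numbers being the least fold higher in tumor-dissociated cells with and without the correction. SH3GL2, FAIM2 and S1PR3 read more than 2-fold higher on T1 than on T2. Each bound belongs to the brightest probe of its gene. Further VCAM1 probes had fitted log2 differences of 2.06 and 1.11, and further GPER1 probes 3.06 and 0.35. In the other direction, the epidermal barrier protein gene FLG read 132 and 146 in tumor-dissociated and 288 and 367 in cultured cells, at least 3.74-fold lower after correction and 2.01-fold without it. In the same order of scales, the least fold lower was 2.21 and 1.44 for the protocadherin PCDH20, 2.17 and 1.44 for the gelatinase MMP9, 2.10 and 1.41 for the tyrosine hydroxylase TH, and 1.77 and 1.29 for the epidermal keratin KRT9. It was 1.71 and 1.26 for the Notch glycosyltransferase MFNG, 1.69 and 1.25 for the glutamate transporter SLC1A1, and 1.68 and 1.27 for the secreted IGFL1. Over all genes tested, 73 higher and 22 lower calls were bounds of this kind.

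Of 15 collagen genes measured, 6 were higher and 1 was lower (46.7% called, against 5.98% of all genes tested), with a list median log2 difference of 0.66 against -0.014 over all member genes. COL6A3, a chain of the beaded-filament collagen, read 3284 and 3617 in tumor-dissociated and 399 and 378 in cultured JMJD3 cells (log2 3.55 ± 0.19, adjusted p = 3.7e-05). Its partner chains COL6A2 (902 and 474 against 239 and 258, log2 1.90) and COL6A1 (1867 and 1006 against 558 and 591, log2 1.42) were called as well, so all 3 chains were higher, although a dimmer COL6A2 probe had a difference of -0.11. The fibrillar chains COL1A1, COL1A2 and COL3A1 were dim: COL1A1 read 421 and 232 in tumor-dissociated and 152 and 148 in cultured cells, at least 3.43-fold higher (1.93-fold uncorrected), COL1A2 had a log2 difference of 1.58, and COL3A1 was at least 1.99-fold higher (1.36-fold uncorrected). COL12A1, a collagen that decorates fibrils, was the member called lower (159.7 and 173 against 208 and 246, log2 -0.95). The count of higher collagens was 1 without C1, 2 without C2 and 5 without T1. The COL12A1 call held only without T2.

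Of 21 matrix glycoproteins and proteoglycans, 5 were higher and 1 lower (28.6% called), with a median of 0.20. Biglycan (BGN), a small leucine-rich proteoglycan, read 7482 and 8322 in tumor-dissociated and 1315 and 1534 in cultured JMJD3 cells (log2 2.56 ± 0.23). Fibulin FBLN1 read 582 and 1281 against 198 and 194 (log2 3.00), osteopontin SPP1 1842 and 2848 against 681 and 676 (log2 1.92), periostin POSTN 272 and 309.7 against 147 and 165 (log2 1.84), and fibronectin FN1, dim in cultured cells, 325 and 194 against 153 and 160.3, at least 2.41-fold higher (1.55-fold uncorrected). Thrombospondin THBS1, an adhesive glycoprotein that also activates latent TGF-beta, was lower, with 3119 and 3055 in tumor-dissociated and 5295 and 6113 in cultured cells (log2 -0.90 ± 0.16). Without C1 the list had 3 higher calls and without C2 it had 2. Among 11 collagen-modifying and crosslinking enzymes, the procollagen protease enhancer PCOLCE (0.85) and the prolyl hydroxylase P4HA2 (0.87) were higher on the log2 scale, the list median was 0.39, and the count of 2 was 0 when either of C1 and C2, T1 or either cultured vector array was left out.

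Fibroblast markers stood higher together with the matrix genes, and 4 of them (COL1A1, COL1A2, COL3A1 and POSTN) are in the matrix lists as well. Of 13 fibroblast markers, 11 were above background on both tumor-dissociated JMJD3 arrays and 5 on both cultured arrays. Their summed intensity was 7186 and 4624 in tumor-dissociated against 2788 and 2746 in cultured JMJD3 cells. ACTA2 and PDGFRB were the brightest of them on both tumor-dissociated arrays and weigh most in that sum. All 12 tested genes of the fibroblast list had positive differences, with a median of 1.34, or 1.21 with dim genes at their bounds. Of them 6 were called (50%, against 5.98% of all genes tested). COL1A1, COL3A1 and FAP were above background on neither cultured JMJD3 array. They became members through the tumor-dissociated arrays alone, so the filter favoured a positive sign for them. The called ones were the collagens COL1A1, COL1A2 and COL3A1, POSTN, the growth factor receptor PDGFRB (1999.7 and 792 against 301 and 221, log2 2.90) and smooth muscle actin ACTA2 (2403 and 1300.4 against 574 and 538, log2 1.87). The defining surface marker THY1 read 127 and 134 in tumor-dissociated and 123 and 126 in cultured cells, below background on all 4 JMJD3 arrays, as was DPT (146 and 139 against 143 and 147). Decorin (DCN) read 161 and 213 in tumor-dissociated and 186 and 179 in cultured cells. Lumican (LUM) read 413 and 269.7 against 313 and 303, and TAGLN 264 and 244 against 231 and 269. The groups overlapped for DCN, LUM and TAGLN. The 6 calls were 2 without C1, 2 without C2 and 5 without T1. The part of other cells in the matrix result was not tested. In bulk RNA, fewer cells of a type and less RNA per cell cannot be told apart.

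Markers of other cell types were mostly below background. Of 14 leukocyte markers measured, PTPRC, CD3D, CD3E, CD8A, NKG7, ITGAM, CD163 and TYROBP were above background on none of the 4 JMJD3 arrays. CD68, a lysosomal protein that is abundant in macrophages and present in other cells, read 1688 and 1307 in tumor-dissociated and 1355 and 1294 in cultured cells and was the brightest of the list. CD14 (222 and 203 against 229 and 213) and AIF1 (206 and 199.9 against 197 and 231) were above background on all 4 arrays as well, with overlapping groups. LYZ was lower, and CSF1R read 558 and 183 in tumor-dissociated and 156 and 178 in cultured cells without a call. The summed leukocyte intensity was 4147 and 3420 in tumor-dissociated against 3700 and 3612 in cultured JMJD3 cells, so the groups overlapped. Among 10 endothelial markers, PECAM1 was the only one called (180.1 and 175 in tumor-dissociated, 144 and 145 in cultured cells, at least 1.27-fold higher (1.10-fold uncorrected)), while VWF, CDH5, KDR, TIE1, CLDN5, EMCN and ERG stayed below background on all 4 arrays. The fatty acid carrier FABP4, an adipocyte marker that other cells share, read 423 and 305 against 177 and 195 (log2 1.61), and the adipocyte markers ADIPOQ and PLIN1 were below background. The adipocyte hormone LEP was above background on all 4 JMJD3 arrays, with 838 and 698 in tumor-dissociated and 1037 and 819.6 in cultured cells and overlapping groups. None of 4 muscle markers was above background. Of the keratinocyte and erythroid markers, 5 were members and none was called, with a median of -0.098.

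Among 21 integrin and laminin genes, 3 were higher and 0 lower (14.3% called, against 5.98% of all genes tested). Of the differences, 19 were positive, and the median was 0.51. The laminin chain LAMA5 read 9141 and 6635 in tumor-dissociated and 1777 and 1665 in cultured JMJD3 cells (log2 2.25 ± 0.21). LAMA4, another basement membrane chain, read 1568 and 1976 against 838 and 545 (log2 1.54), and the laminin-binding integrin ITGB4 568 and 333 against 173 and 174 (log2 2.20). The count was 1 without C2 and 8 without T2. In the list of 14 transition factors and cadherins, the mesenchymal cadherin CDH11 (537 and 445 in tumor-dissociated, 173 and 172 in cultured cells, log2 2.47) and the simple epithelial keratin KRT8 (499 and 448 against 194 and 168, log2 2.25) were higher. The calls of both held in all 8 fits with 1 array left out, and the list median was 0.34.

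Proteases and inflammatory genes moved both ways. Of 17 matrix metalloproteinases and inhibitors, 23.5% were called, against 5.98% of all genes tested. The inhibitor TIMP2 (0.74) and the sheddase ADAM19 (0.92) were higher on the log2 scale, while the stromelysin MMP10 and the gelatinase MMP9 were lower. MMP10 read 318 and 209 in tumor-dissociated and 463 and 752 in cultured JMJD3 cells (log2 -1.67 ± 0.41), and MMP9 read 143 and 127 against 201 and 269.7. Both higher calls of the list were lost when either of C1 and C2, T1 or either cultured vector array was left out, 5 genes were called higher without T2, and the lower calls numbered 0 without C2. In the list of 21 NF-kB targets and inflammatory cytokines, 4 were higher and 1 was lower (23.8% called). The list median of 0.26 was 0.02 without T1. VCAM1 was the largest of them. The NF-kB feedback inhibitor TNFAIP3 read 358 and 489 in tumor-dissociated and 207 and 206 in cultured cells (log2 1.60 ± 0.20), TNFAIP2 read 239 and 214 against 163 and 156, and the cytokine IL6 308 and 191 against 156 and 149, at least 2.28-fold higher (1.5-fold uncorrected). IL24, a secreted cytokine first described in differentiating melanoma cells, was lower, with 180.4 and 250.2 in tumor-dissociated and 610.4 and 446 in cultured cells (log2 -1.96 ± 0.44). The higher calls of this list numbered 2 without C1, 1 without C2, 2 without T1 and 6 without T2. The lower call was lost without C1, C2 or T1.

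Interferon-stimulated genes leaned upward in tumor-dissociated JMJD3 cells. Of 32 measured, 8 were called higher and 0 lower (25% called, against 5.98% of all genes tested). Of the differences, 29 were positive, and the median was 0.67 against -0.014 over all member genes. IFITM1, a membrane protein that hinders virus entry, read 1436 and 1055 in tumor-dissociated and 213 and 176 in cultured cells (log2 3.64 ± 0.33, adjusted p = 0.00116). BST2, which tethers budding virions, read 565 and 349 against 188 and 187 (log2 1.99 ± 0.40), the antiviral GTPase MX1 1007 and 824 against 447 and 411 (log2 1.31 ± 0.18), and the ADP-ribosyltransferase family member PARP9 829.8 and 572 against 368 and 325 (log2 1.26 ± 0.29). IFI35 (1.17), DTX3L (1.16), the RNA sensor OAS2 (1.11) and the transcription factor IRF9 (1.05) were the other called members, in log2 differences. ISG15 and IFIT1 were not called, with log2 differences of 1.10 ± 0.31 and 0.95 ± 0.34. The count of 8 was 3 without C1, 1 without C2, 3 without T1 and 12 without T2, and the median stayed between 0.53 and 0.93 over these fits.

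Many promoters of these genes carry the interferon-stimulated response element, read here as GAAA, any 2 bases and GAAA again on either strand in the RefSeq window of 250 bases before to 50 after the gene's start in GRCh38.p14. It was found in 68% of the 25 interferon-stimulated genes with a promoter in the table, 17 genes, and in 2.88% of 9405 member genes. Among all genes called higher it was found in 3.56% of 365 promoters, and in 2.53% of 198 promoters of genes called lower. Of the called interferon-stimulated genes, 7 had a promoter and 4 held the element. The stretches of BST2 and IFITM1 are shown because they are the called ones in which it lies before the start, with the element in capitals and 20 bases on each side, 5′ to 3′ on the gene's strand. A match is a description and not a bound site. BST2 (chr19:17405725-17405780, minus strand) holds overlapping copies that begin 130 and 124 bases before the start, and IFITM1 (chr11:313980-314029, plus strand) holds a copy that begins 40 bases before it.
BST2: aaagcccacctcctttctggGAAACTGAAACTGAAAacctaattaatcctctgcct
IFITM1: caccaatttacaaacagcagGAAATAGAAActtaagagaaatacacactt

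Antigen presentation genes gave no calls. All 12 HLA class II genes measured had negative differences, with a median of -0.77 and 0 calls. The alpha chain gene HLA-DRA read 3549.8 and 4388 in tumor-dissociated and 7843 and 7369.9 in cultured JMJD3 cells, without overlap, and its log2 difference was -0.96 ± 0.93 (adjusted p = 0.554). The tumor-dissociated vector arrays, which share the estimate of the spread, read 5548 and 469, with replicate 2 far below replicate 1. The class II chaperone CD74 read 3889.8 and 3501 against 6975 and 6149.6 (log2 -0.85 ± 0.76), and the transactivator CIITA 189 and 172 against 258 and 286 (log2 -1.12 ± 0.35). When either tumor-dissociated vector array was left out, 5 of the 12 genes were called lower, CIITA and HLA-DRB4 among them. Of 16 HLA class I and peptide loading genes, none was called and the median was 0.19.

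Lipid synthesis genes leaned upward. Of 21 cholesterol and fatty acid synthesis genes, 8 were higher and 0 lower (38.1% called, against 5.98% of all genes tested). Of the differences, 20 were positive, with a median of 0.66. DHCR7, the last step of cholesterol synthesis, read 972 and 848 in tumor-dissociated and 415 and 338 in cultured JMJD3 cells (log2 1.57 ± 0.25, adjusted p = 0.0130). SREBF1, the transcription factor that drives fatty acid synthesis, read 1617 and 1361 against 861 and 477 (log2 1.37 ± 0.32), the desaturase SCD 9101 and 8432 against 4709 and 2905 (log2 1.27 ± 0.28), and the mevalonate kinase MVK 257 and 232 against 177 and 185 (log2 0.85 ± 0.17). Fatty acid synthase FASN (0.79), acetyl-CoA carboxylase ACACA (0.73), lanosterol synthase LSS (0.70) and the desaturase FADS1 (0.69) completed the called genes, in log2 differences. The calls were sensitive to single arrays: 2 remained without C1, 0 without C2 and 0 without T1. The median was between 0.60 and 0.70 in these 3 fits. C1 read higher than C2 for SREBF1 and SCD.

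Cell division genes leaned downward. All 32 mitosis and kinetochore genes had negative differences, with a median of -0.48. Called lower were 5 (15.6%), against 2.2% of all genes tested. CENPE, the kinetochore motor that aligns chromosomes, read 430.4 and 643 in tumor-dissociated and 1476 and 1538 in cultured JMJD3 cells (log2 -1.74 ± 0.23, adjusted p = 0.00610). CENPF, another kinetochore protein, read 1049 and 1280.0 against 2211 and 2127 (log2 -0.97 ± 0.18), the spindle pole protein ASPM 1686 and 1925 against 3674 and 2935 (log2 -0.90 ± 0.18), the spindle checkpoint protein MAD2L1 1482 and 2052 against 3200.4 and 3121 (log2 -0.90 ± 0.19), and the mitotic kinase CDK1 1762 and 2763 against 3908 and 4064 (log2 -0.89 ± 0.22). Outside the list, CIP2A, which inhibits a tumor-suppressing phosphatase, read 197 and 263 against 466 and 606 (log2 -1.80 ± 0.27). The CENPE and CDK1 values were lower on T1 than on T2. The count of 5 was 1 with a median of -0.23 without T1, 11 with a median of -0.71 without T2, 1 without C1 and 0 without C2.

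All 33 DNA replication and S-phase genes also had negative differences, with a median of -0.42, but none was called. The largest, the ribonucleotide reductase subunit RRM2, read 503 and 1249.6 in tumor-dissociated and 1461 and 1874 in cultured JMJD3 cells (log2 -1.19 ± 0.43, adjusted p = 0.126). Without T2, 8 of these genes were called lower and the median was -0.66, against -0.18 without T1. In vector cells the medians, tumor-dissociated minus cultured, were -0.13 for the mitosis list and -0.46 for the replication list.

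The cell cycle homology region, searched as TTTGAA on either strand, lay in the promoter window of 66.7% of the 27 mitosis genes with a promoter in the table and of 10.2% of all 9405 member genes. Its share was 18.2% among genes called lower and 11.8% among genes called higher. The CCAAT box (CCAAT on either strand) was found in 77.8% of the mitosis genes and 37.3% of all, with 44.9% of genes called lower and 31.2% of genes called higher. On either strand, an E2F site (TTTCCCGC) was found in 30% of 30 replication genes and 2.58% of all, and an AP-1 site (TGACTCA) in 4.66% of genes called higher, 3.54% of genes called lower and 3.15% of all. The promoter stretches of ASPM (chr1:197146757-197146802, minus strand) and CDK1 (chr10:60778150-60778195, plus strand) are shown because they are the called mitosis genes in which the region, in capitals, lies before the start. The match begins 113 bases before the start in ASPM, where the gene's strand carries the reverse complement, and 161 bases before it in CDK1.
ASPM: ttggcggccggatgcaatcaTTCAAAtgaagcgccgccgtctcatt
CDK1: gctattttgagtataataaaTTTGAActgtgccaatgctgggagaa

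Secreted growth factors and their pathways held mostly higher calls. Of 24 growth and angiogenic factors, 6 were higher and 0 lower (25% called, against 5.98% of all genes tested). The list median of 0.07 was close to that of all member genes. Placental growth factor PGF read 245 and 245 in tumor-dissociated and 154 and 153 in cultured JMJD3 cells, at least 2.42-fold higher (1.52-fold uncorrected). The lymphangiogenic VEGFC read 1059 and 1087 against 419 and 619 (log2 1.26 ± 0.22), the insulin-like growth factor binding protein IGFBP7 3811 and 1888 against 1090.0 and 1106 (log2 1.37 ± 0.31) and the platelet-derived growth factor PDGFC 500.5 and 538 against 277 and 346 (log2 1.02 ± 0.20). IGFBP6 (0.79) and VEGFB (0.64) were the other called members, in log2 differences. Without T1 the list had 1 call, and it had 2 without either of C1 and C2 and 2 without either cultured vector array. EDN3, a melanocyte growth peptide outside the list, read 366 and 315 in tumor-dissociated and 139 and 130.0 in cultured cells, the cultured ones below background.

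In the TGF-beta and BMP pathway, 4 of 19 members were higher and 0 lower, with a median of 0.36. The ligand TGFB2 read 280.3 and 297 in tumor-dissociated and 179.9 and 162 in cultured JMJD3 cells (log2 1.45 ± 0.17), and the receptor TGFBR2 3374 and 2476 against 1518 and 1593 (log2 0.94 ± 0.20). The ligand TGFB3 (0.84) and the signal transducer SMAD3 (0.68) had smaller log2 differences. The count was 1 without C1, 0 without C2, 1 without T1 and 1 without either cultured vector array. Of 19 genes listed for the Wnt pathway, the secreted modulator DKK3 (1691 and 1116 against 637 and 430.5, log2 1.60) and the transcription factor TCF4 (1.25) were higher, and of 19 YAP and TEAD targets only TGFB2 was. TCF4 was listed by its symbol. Whether that gene belongs to the Wnt pathway was not tested, so its place among the Wnt calls is uncertain. No member of the 12 Notch pathway genes was called. Their medians were 0.28 for the Wnt, -0.11 for the YAP and 0.19 for the Notch list. Of the TGF-beta and BMP list 21.1% was called, of the Wnt list 10.5% and of the YAP list 5.26%, against 5.98% of all genes tested.

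Among 17 ERK output and feedback genes, the feedback inhibitor SPRY1 was higher, with 2439.9 and 2270.1 in tumor-dissociated and 572 and 473 in cultured JMJD3 cells (log2 2.43 ± 0.23), and cyclin CCND1 was lower, with 4953 and 4536 against 7226 and 7639 (log2 -0.66 ± 0.16). The SPRY1 call held in all 8 fits with 1 array left out and the CCND1 call in 0. Of 18 AP-1 and immediate early genes, JUND (0.76) and the phosphatase DUSP1 (1661 and 1348 against 716 and 814, log2 1.08) were higher and the stress factor ATF3 was lower (267 and 275 against 409 and 395, log2 -0.83). All 3 of these calls were lost without C1, C2 or T1, and without T2 the list had 3 higher and 3 lower calls. PDGFRB was the only call among 18 receptor tyrosine kinases, and LPAR1 and S1PR3 were the calls among 20 genes of G protein signalling. The medians of these lists were 0.052 for ERK, -0.026 for AP-1, -0.026 for the kinases and 0.26 for G protein signalling. The share called was 11.8% for ERK, 16.7% for AP-1, 5.56% for the kinases and 10% for G protein signalling. Over all genes tested it was 5.98%.

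The inducible heat shock proteins HSPA1A (1672 and 1609.6 in tumor-dissociated, 2955 and 3179 in cultured JMJD3 cells, log2 -0.95 ± 0.15) and HSPA1B (1796 and 1755 against 3107 and 3679.8, log2 -0.97 ± 0.16) were lower among 15 heat shock genes. They are near-identical copies, so their probes may share signal. Of 25 unfolded protein and ATF4 response genes, the amino acid transporter SLC7A5 (3257 and 4340.3 against 6001 and 7549, log2 -0.86) and ATF3 were lower. CA12 and the glycolytic isomerase GPI (0.66) were higher among 28 hypoxia and glycolysis genes. The stress-induced secreted factor GDF15 read 575 and 684 against 212 and 235 (log2 2.12 ± 0.21) and GADD45B was lower (-0.71) among 20 p53 targets and CDK inhibitors. The collagen-degrading protease CTSK (763 and 913 against 284 and 285, log2 2.01 ± 0.17) and the acid lipase LIPA (0.95) were higher among 26 lysosomal genes, and GPX8 (0.84) among 26 antioxidant genes. The list medians were -0.25 for heat shock, 0.12 for the unfolded protein response, 0.092 for hypoxia, 0.022 for p53, 0.24 for lysosomes and 0.073 for antioxidants. The share called was 13.3% for heat shock, 10% for p53, 8% for the unfolded protein response, 7.69% for lysosomes, 7.14% for hypoxia and 3.85% for antioxidants, against 5.98% of all genes tested. No gene was called among 34 respiratory chain subunits (median 0.11), 31 ribosomal proteins (median 0.03), 16 aminoacyl-tRNA synthetases (median 0.17) or 13 BCL2 family genes (median -0.14).

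None of 11 melanocyte lineage and pigment genes was called. Their median was -0.36, or -0.24 with dim genes at their bounds, and ran from -0.53 without T2 to -0.038 without T1. Of 17 genes of the invasive melanoma state, SOX9 was higher and the neural crest receptor NGFR lower (156 and 193 in tumor-dissociated, 244 and 305 in cultured JMJD3 cells, log2 -1.28), with 11.8% called and a median of -0.02. No call fell among 20 Polycomb proteins and H3K27 demethylases (median -0.15). HOXB13 was the only call among 22 HOX genes, dim at 198 and 199 in tumor-dissociated against 155 and 157 in cultured cells, and the HOX median was 0.035 (4.55% called). The cancer-testis antigens PRAME (log2 0.67 ± 0.16) and MAGEA10 (4877 and 3793 against 2083 and 2095, log2 1.08) were higher among 17 (median 0.20, 11.8% called).

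**Figure D3:**
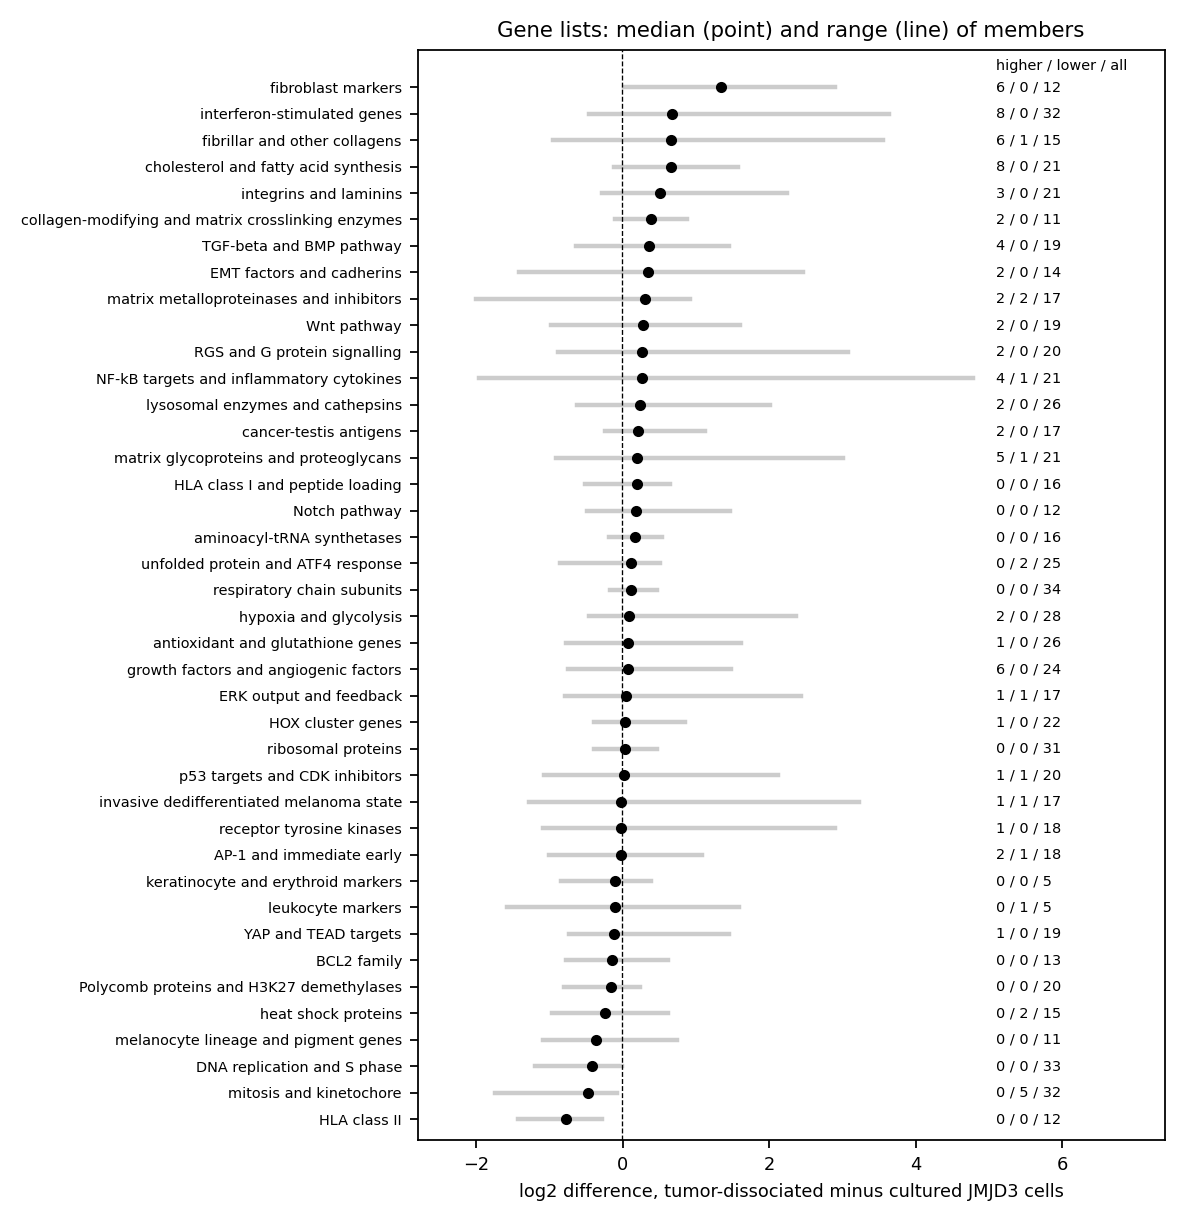
For each gene list with at least 5 members, the point is the median log2 difference, tumor-dissociated minus cultured JMJD3 cells, the line runs to the lowest and highest member, and the dashed line is the median of all member genes (-0.014). The numbers on the right count members called higher, called lower and measured, so that the fibroblast markers (6 of 12 higher) top the list and the HLA class II genes (0 of 12 called) end it.

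In the lists with 1 or 2 calls, CDH11, KRT8, SPRY1, GDF15, CA12 and CTSK kept their call in all 8 fits that left out 1 array, and each of the other called genes lost it in at least 1 of them. Small changes could be called where the arrays agreed closely: the mitochondrial enzymes HIBADH (2589 and 2486 in tumor-dissociated, 1709.9 and 1704 in cultured JMJD3 cells, log2 0.60) and DECR1 (2946 and 2784 against 1944 and 1894, log2 0.60) and the podosome adaptor SH3PXD2B (296 and 288 against 224 and 229.6, log2 0.60) were called higher, and ZFC3H1 (542 and 505 against 743 and 748, log2 -0.61), a factor of nuclear RNA decay, lower. None of these 4 was called in any fit with 1 array left out.

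Small nucleolar RNA genes leaned downward. These RNAs, excised from introns, guide the chemical modification of ribosomal RNA, and the probes may also read the host transcript. Of 127 such genes measured, 26 were called lower and 0 higher. Over all genes tested, 2.2% were called lower and 3.78% higher. Of the differences, 115 were negative, and the median was -0.47. SNORD30 read 195 and 264 in tumor-dissociated and 406 and 429 in cultured JMJD3 cells (log2 -1.36 ± 0.25, adjusted p = 0.0198), and SNORA17A, with the smallest called change, 166 and 167 against 194 and 207 (log2 -0.62 ± 0.15). The count was 1 without C1, 0 without C2, 4 without T1, 9 without either cultured vector array and 34 without T2, while the median ran from -0.44 to -0.58 over the fits that left out 1 array. In vector cells the median of the same genes was -0.41 and 19 were called lower. Of the microRNA genes, MIR221 was lower (192 and 288 in tumor-dissociated, 389 and 418 in cultured JMJD3 cells) and MIR302C higher but dim (175 and 169 against 145 and 142).

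Genes of chromosome 13 stood lower as a group. The median log2 difference of its 215 member genes was -0.27, and 161 (74.9%) of the differences were negative. Called lower were 15 genes (6.98%, against 2.2% of all genes tested), and 1, POSTN, was called higher. The medians of the other 22 chromosomes lay between -0.062 and 0.039. Each tumor-dissociated JMJD3 array showed it: against the mean of the cultured JMJD3 arrays, the median over these genes was -0.192 on replicate 1 and -0.161 on replicate 2, in log2 of the uncorrected intensities. Vector cells had a shift of like size, with a median of -0.28 on the corrected scale, where the other chromosomes lay between -0.083 and 0.021, and array medians of -0.192 and -0.158. The JMJD3 and vector comparisons share no array. Along the chromosome, 4 of its 5 windows of at least 40 neighbouring genes ranked 2 to 5 from the lowest among 280 windows of the genome. The lowest window lay on chromosome 11, with a median of -0.39 and 31 of 40 differences negative, and the remaining chromosome 13 window ranked 47 with a median of -0.099. Named members called lower include PCDH20, the chromatin protein HMGB1 (log2 -1.24 ± 0.27) and the kinetochore protein SKA3 (294 and 416 in tumor-dissociated, 589.7 and 708 in cultured JMJD3 cells, log2 -1.15). The median stayed between -0.24 and -0.29 whichever array was left out, but the count of lower calls was 0 without either of C1 and C2, 3 without T1, 9 without either cultured vector array and 24 without T2.

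**Figure D4:**
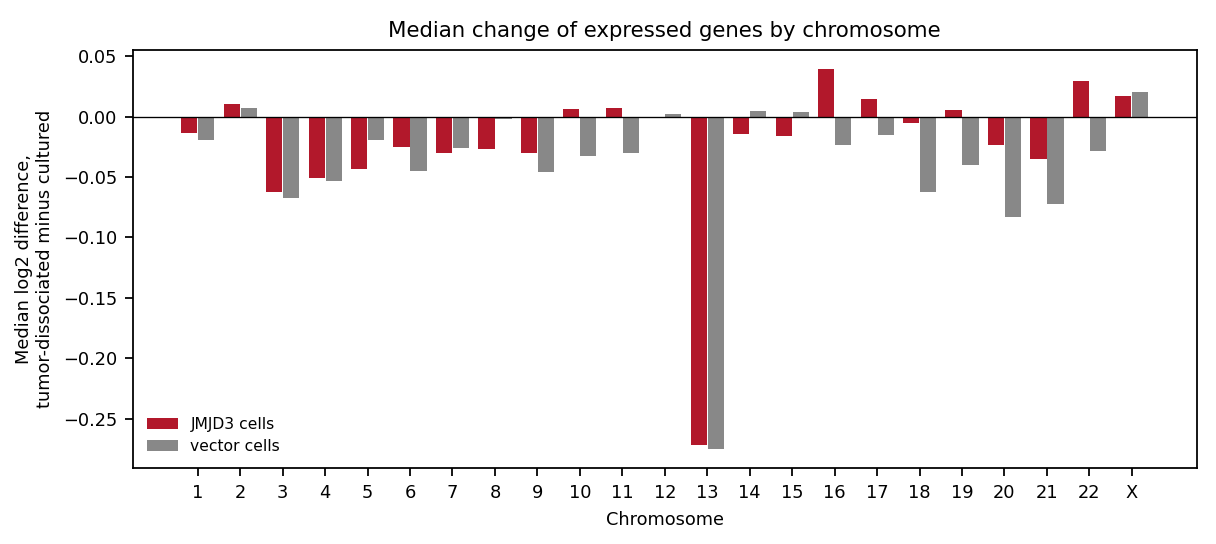
Bars give the median log2 difference, tumor-dissociated minus cultured cells, over the member genes of each chromosome, in JMJD3 cells (red) and vector cells (grey). Chromosome 13 stands at -0.27 in JMJD3 and -0.28 in vector cells, and the medians of the other 22 chromosomes lie between -0.083 and 0.039.

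Vector cells, with no array in common, gave 1261 calls for the same change of origin (10.2% of genes tested), 763 higher and 498 lower. Both comparisons came from 1 fit and shared its estimate of the spread of each gene. Genes with a small spread were thus favoured for a call in both, and the overlap of the calls is not independent. Of the genes called higher in JMJD3 cells over all genes tested, 339 were also called higher in vector cells, 72.4% of the JMJD3 and 44.4% of the vector list. Of those called lower, 91 were shared, 33.3% of the JMJD3 and 18.3% of the vector list. The difference had the same sign in vector cells for 463 of 468 higher and 262 of 273 lower genes. The share with the same sign over all genes tested was not computed. The only gene called in opposite directions was MMP10, which in vector cells read 285 and 453 in tumor-dissociated and 158 and 152 in cultured cells. Both cultured vector arrays lie below the background level, so the vector change is a bound of at least 4.28-fold higher after correction and 2.22-fold without it. The fitted difference between the lines, -3.94 ± 0.58, depends on these unlit values and missed the threshold (adjusted p = 0.0595).

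The lists described above had medians in vector cells of 1.82 for fibroblast markers, 0.90 for interferon-stimulated genes, 0.30 for collagens, 0.50 for lipid synthesis and -1.84 for HLA class II, where 16 interferon-stimulated genes were called higher and 5 HLA class II genes lower. For some HLA class II genes and some genes outside these lists, the tumor-dissociated vector arrays stood far apart, with replicate 2 the low one. HLA-DRB4 read 1103 and 248, ERBB3 2053 and 338 and SOX10 1559.8 and 231. COL1A1 (337 and 400) and COL3A1 (364 and 491) read higher on replicate 2. Some members had a change in JMJD3 cells and none called in vector cells. CENPE read 1221 and 1390.4 in tumor-dissociated and 1404 and 1331 in cultured vector cells, a difference between the lines of -1.66 ± 0.32 (adjusted p = 0.167). TGFB2 read 165 and 166 in tumor-dissociated and 158 and 163 in cultured vector cells, with 1.32 ± 0.24 between the lines (adjusted p = 0.130), and FABP4 139 and 149.6 against 147 and 137, with 1.51 ± 0.36 (adjusted p = 0.288). None of these 3 differences passed the threshold. FABP4 was below background on every vector array, and the TGFB2 vector values lay close to that level. The sizes of these 2 differences are thus fitted values with little or no vector signal behind them.

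The effect of origin differed between JMJD3 and vector cells for 13 genes (0.105% of genes tested), by the interaction of the same fit. At an unadjusted p under 0.05 there were 853. For 3 genes the JMJD3 cells had the more positive change. THBS1 read 3119 and 3055 in tumor-dissociated and 5295 and 6113 in cultured JMJD3 cells, and 647 and 736 in tumor-dissociated and 5816 and 6506 in cultured vector cells, a difference of 2.46 ± 0.23 between the log2 changes (adjusted p = 0.0117). The photomedin-type matrix protein OLFML2A differed by 1.87 ± 0.25 and the methyl-DNA-binding zinc finger ZBTB38 by 1.57 ± 0.21. Neither was called in JMJD3 cells.

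For the other 10 genes the change was more negative in JMJD3 cells. UTS2, the vasoactive peptide urotensin, read 336 and 788 in tumor-dissociated and 179 and 205 in cultured JMJD3 cells, and 7594 and 7567 in tumor-dissociated and 179.6 and 172 in cultured vector cells, so that it was higher after tumor growth in both, by 2.18 in JMJD3 and 6.67 in vector cells on the log2 scale, with a difference of -4.49 ± 0.57 (adjusted p = 0.0323). SPP1 read 4721 and 8892 in tumor-dissociated and 280.4 and 272 in cultured vector cells, against the JMJD3 values given above, and differed by -3.27 ± 0.43. The guanine nucleotide exchange factor VAV3 differed by -2.28 ± 0.29, RCAN2 by -3.28 ± 0.39 and the microfibril protein MFAP4 by -1.94 ± 0.24. All of these were called higher in both lines. RCAN2 and MFAP4 were below background on all 4 cultured arrays, and VAV3 on 1 cultured vector array, so the sizes of the RCAN2 and MFAP4 differences are fitted values with bounds alone behind each change. Uncorrected, RCAN2 was at least 2.63-fold higher in JMJD3 and 11.8-fold in vector cells, and MFAP4 at least 1.15-fold and 2.56-fold. The chemokine CXCL8 read 2786 and 4058 in tumor-dissociated and 2577 and 2558 in cultured JMJD3 cells, and 2802 and 3260.4 in tumor-dissociated and 561 and 475 in cultured vector cells, so that the cultured vector cells alone were low and the difference was -2.42 ± 0.30. The homeobox gene PBX3 was called higher in vector cells (1.25) and read 983 and 1029.8 in tumor-dissociated against 1390.4 and 1427 in cultured JMJD3 cells (difference -1.78 ± 0.21). CDH6 (-2.87 ± 0.39), TSPAN8 (-2.62 ± 0.26) and LINC01139 (-3.10 ± 0.26), above background on neither JMJD3 group, were called higher in vector cells. The count of 13 was 65 without tumor-dissociated vector replicate 1, 2 without tumor-dissociated vector replicate 2, 15 without T1, 70 without T2, 3 without C2, and 0 without C1 or either cultured vector array.

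**Figure D5:**
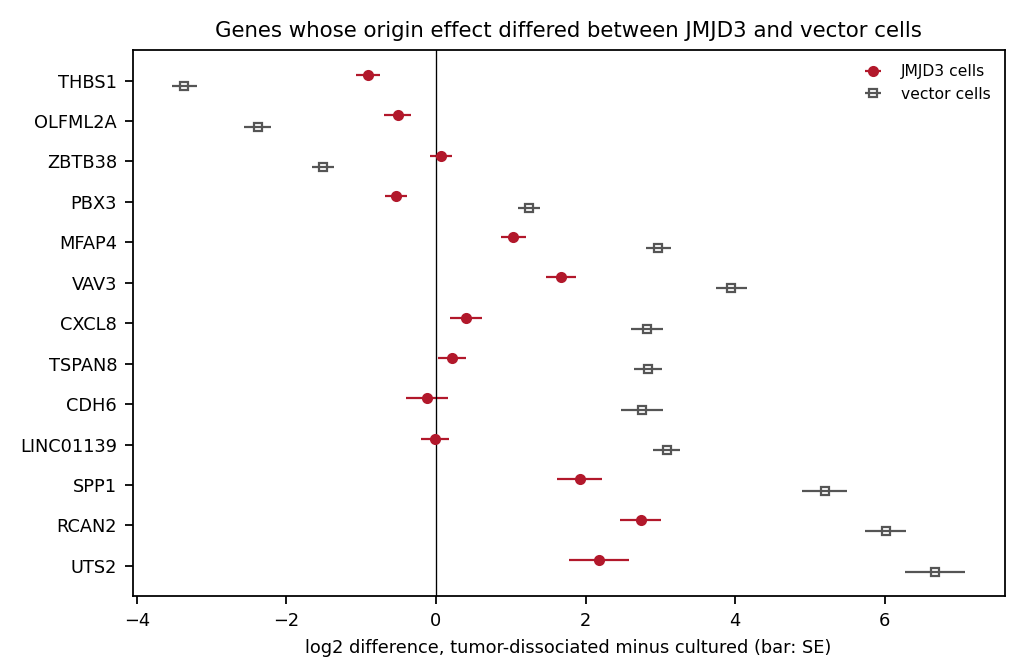
Log2 difference, tumor-dissociated minus cultured, with its SE in JMJD3 cells (filled circles) and vector cells (open squares) for the 13 genes called in the test of the difference. THBS1, OLFML2A and ZBTB38 lie farther right in JMJD3 than in vector cells, and the other 10 genes lie farther left.

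Probes of the same gene mostly pointed the same way. The called genes had 243 further probes, of which 229 had a difference in the direction of the probe used and 14 in the other. Only 77 of the 243 were themselves called in the same direction when all probes were tested. SS18 and RNF146, called lower, and PTK7, called higher, were among the genes with an opposing probe, as were LYZ and COL6A2. The log2 differences of -0.64 for SS18, -0.93 for RNF146 and 0.69 for PTK7 belong to the brightest probe only, and the opposing probes gave 0.43, 0.21 and -0.25.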

How the data were processed

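The 8 arrays came from 4 groups of 2, hybridised on 1-colour Illumina HumanHT-12 BeadChips. The deposited values are normalized linear intensities made with GenomeStudio (framework 2011.1, Gene Expression module 1.9.0), per the submitters' processing notes. How GenomeStudio normalized them is not stated in the labels. The sorted arrays differed by at most 0.0057 in log2, as after quantile normalization, and the lowest intensity was 111, so the authors' values still hold background. A second deposited table was not used, since its 16 columns match no sample label. Of 47323 probes, 30113 named 1 gene, 8 several and 17202 none, by the platform annotation.

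The background level, 161.569, was the upper 0.01 tail of a normal curve around the mode of the unlit probes (139.823, SD 0.0896 in log2). Between 19846 and 19858 probes an array passed it. Intensities were corrected by normexp with an offset of 16, and log2 values were fitted with limma 3.58.1 in R 4.3.3 (lmFit, eBayes, 4 group means), with Benjamini-Hochberg adjustment over 12388 genes and a call at 0.05. The brightest probe stood for its gene. Where no array of the dimmer group passed the background level, the fold is a lower bound against the higher of that level and the dim values, on the corrected scale and, an alternative added after seeing the data, on the uncorrected scale. With 2 arrays a group, exact permutation of 1 value cannot go below p = 0.333. The number of arrays limits the precision. The script was tested on simulated data with 200 known changes. It recovered 2 of 66 changes of log2 0.5, 35 of 67 of log2 1 and 66 of 67 of log2 2, with 5 false calls. Changes of log2 1 or less were thus often missed.

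The members and gene lists were chosen with earlier results of these data known. Named genes are the 12 largest measured calls in each direction, the 8 brightest bounded calls in each direction, up to 4 called members of a list in each direction or else up to 2 of the largest differences, the genes called in the difference between the lines, the markers, and small or discordant calls. The remaining called list members, the genes called in all leave-out fits, HMGB1, SKA3, ISG15, IFIT1, CD74, ERBB3 and the microRNA probes were named after their values were seen. Promoters are from RefSeq (GRCh38.p14), which held 9405 of 11696 member genes. Alternatives changed the background correction, filter, probe choice, arrays, spread estimate, normalization and threshold.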

Additional observations from a re-analysis of the deposited data

Results flagged for a closer look

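The test of the difference between JMJD3 and vector cells in the effect of origin, tumor-dissociated minus cultured, passed its threshold for 13 genes, which are given here, with both effects where they were measured. The difference, JMJD3 minus vector on the log2 scale, was 2.46 ± 0.23 for THBS1 (-0.90 in JMJD3 and -3.36 in vector cells), 1.87 ± 0.25 for OLFML2A (-0.51 and -2.38) and 1.57 ± 0.21 for ZBTB38 (0.065 and -1.51), with SEs and with the JMJD3 effect first throughout. Among the matrix and secreted products it was -4.49 ± 0.57 for UTS2 (2.18 and 6.67), -3.27 ± 0.43 for SPP1 (1.92 and 5.20) and -2.42 ± 0.30 for CXCL8 (0.40 and 2.82). It was -2.28 ± 0.29 for VAV3 (1.67 and 3.95) and -1.78 ± 0.21 for PBX3 (-0.53 and 1.25). For RCAN2 and MFAP4 the fitted differences were -3.28 ± 0.39 and -1.94 ± 0.24, but both genes were below background in cultured JMJD3 and in cultured vector cells, so each effect is known only as a lower bound and the size of the difference is not measured. After background correction the bounds were 5.40-fold in JMJD3 and 30.4-fold in vector cells for RCAN2, and 1.40-fold and 5.25-fold for MFAP4.

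For LINC01139, a long noncoding RNA, the difference was -3.10 ± 0.26, for the cadherin CDH6 -2.87 ± 0.39 and for the tetraspanin TSPAN8 -2.62 ± 0.26. In JMJD3 cells, LINC01139 read 142 and 133 in tumor-dissociated and 136 and 139 in cultured cells, against 348 and 395 in tumor-dissociated and 132 and 136 in cultured vector cells. TSPAN8 read 153 and 153 in tumor-dissociated and 153 and 139 in cultured JMJD3 cells, against 478 and 435 in tumor-dissociated and 149 and 155 in cultured vector cells. All 3 were below background on all JMJD3 arrays, so their JMJD3 effect has no measured level behind it, and their vector effect rests on cultured arrays that were below background too.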

How the results depend on the processing

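The counts of 736 member genes called between tumor-dissociated and cultured JMJD3 cells (464 higher, 272 lower) and of 13 called in the difference between the lines moved by at most 1.5 times under no normexp, an offset of 50, a filter of 4 of 8 arrays, every probe, the mean of probes and cyclic loess, and under a background level from 1 array, which was chosen after seeing the data. With every probe the count is of probes. The genes called changed more than the counts. Of the 736, 563 kept their call with no normexp and 643 with the mean of probes. At least 695 kept it in each of the others. The member calls were 409 (298 higher, 111 lower) with no filter on dim probes, 261 (202 and 59) with only the 4 JMJD3 arrays, and 359 (266 and 93) without tumor-dissociated JMJD3 replicate 1 and tumor-dissociated vector replicate 2 together. At an adjusted p under 0.01 they were 81 (72 and 9) with 1 gene in the difference, and with a log2 difference over 1 they were 371 (293 and 78). Array weights left 179 lower calls, and trend with robust estimation gave 22 genes in the difference. With the replicate number as a block there were 1153 calls (711 and 442, with 735 of the 736 among them) and 35 in the difference. Whether the replicate numbers pair the arrays was not settled. Deviations of same-numbered arrays from their group means correlated at 0.0649 between the JMJD3 groups. They correlated at 0.373 between the cultured vector and cultured JMJD3 groups, the highest of a range from 0.0461 over all pairs of groups. Leaving out 1 array gave 39 to 1286 calls, 39 to 802 higher and 0 to 484 lower, and 0 to 70 in the difference. In these fits the lone array of a group is assumed to vary like the other groups. Of 166 named genes that were followed across the settings, 9 changed direction in some setting, and none of them was called in JMJD3 cells. The 9 do not include TAGLN. Its tumor-dissociated JMJD3 values (264 and 244) lay between those of cultured JMJD3 replicate 1 (231) and replicate 2 (269). Its sign therefore also depends on which cultured array is kept. Over the fits without 1 array, the log2 difference of DCN ran from -0.44 to 0.47, LUM from -0.30 to 0.60, CDH6 from -0.41 to 0.18, LINC01139 from -0.20 to 0.17, TSPAN8 from -0.012 to 0.45, ZBTB38 from -0.010 to 0.14, CD68 from -0.021 to 0.38, CD14 from -0.23 to 0.013 and AIF1 from -0.36 to 0.083. DCN was at -0.17 with the mean of probes, and without the 2 tumor-dissociated arrays named above LUM was at -0.30, CDH6 at 0.18 and CD68 at -0.021. The cause of these moves was not tested. Genes near the background level have little signal behind them, and 2 arrays a group limit what small changes can be called.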
